A study of Homo sapiens with 12 samples.

Results

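The 32 genes described here are targets of the transcription factor p53 and were taken as a list of named genes. The rule itself uses no measured value, but the list was chosen with earlier results of these data known. The genes were looked for among the 36315 genes to which the deposited transcripts of HMC3 cells could be matched, and all 32 were found. All 32 were among the 21601 genes with at least 10 estimated counts over the 12 libraries, which were tested. HMC3 is an immortalized human microglial line, and the study used it to ask what ephrin-B reverse signaling, triggered by the receptor EphB2, does to microglia. Cells were transfected for 48 h with negative control siRNA or siRNA against ephrin-B1, using RNAiMAX, and were then given pre-clustered EphB2-Fc or Ctrl-Fc at 2 ug/mL for 24 h. Ctrl cells received control siRNA and Ctrl-Fc, EphB2 cells received control siRNA and EphB2-Fc, the siRNA group received ephrin-B1 siRNA and Ctrl-Fc, and the combined group (labelled EphB2 + ephrin-B1 siRNA) received both agents, with 3 libraries from each. Every group, Ctrl included, was therefore transfected and exposed to an Fc protein, and every cell belongs to 1 line, which was established with SV40, a virus whose large T antigen binds p53. Whether T antigen is present in these cultures was not tested.

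p53 is a sequence-specific activator that is kept low in unstressed cells, because one of its own targets, the ubiquitin ligase MDM2, sends it for degradation. DNA damage and other stresses release it from MDM2, after which it raises genes that stop the cell cycle, repair DNA, adjust metabolism or start apoptosis, together with genes that shut the response off again. In microglia and other glia, as in most tissues, p53 activity is read from the RNA of these targets, since p53 is controlled mainly as a protein.

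p53 binds as a tetramer to a pair of adjoining half-sites, each made of 3 purines, a C, a pair of bases that are A or T, a G and 3 pyrimidines. The sites of several members are shown because this element is what p53 reads in its targets. The search covered 2500 bases to either side of the main transcript start, for 2 half-sites of 10 bases with no spacer and with both cores (C, A or T, A or T, G) intact. It found such a site with at most 2 mismatches outside the cores at 13 of 32 members (40.6%). The share was 2.24% among the 16672 tested genes with a main transcript. With at most 1 mismatch the shares were 15.6% and 0.378%, and with at most 3 they were 56.2% and 12.4%. Among 35 further p53 targets outside the members, the shares were 0%, 11.4% and 31.4% with at most 1, 2 and 3 mismatches. The motif reads the same on either strand, so 1 pass covered both. Below, the sites of 8 members are written 5′ to 3′ on the strand of the gene, from the hg38 genome, with both cores in capitals.
CDKN1A: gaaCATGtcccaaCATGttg
PLK2: aaaCATGcctggaCTTGccc
ZMAT3: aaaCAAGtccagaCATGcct
GADD45A: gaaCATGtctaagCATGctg
BTG2: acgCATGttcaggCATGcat
FAS: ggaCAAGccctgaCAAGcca
PMAIP1: gggCTTGtttaccCAAGtct
BBC3: ctgCAAGtcctgaCTTGtcc
The CDKN1A site (chr6:36676449-36676468, plus strand) lies upstream, with its first base at -2265 from the start of the main transcript and inside an exon of another transcript. The PLK2 site (chr5:58462274-58462293, minus strand, at -2207 and upstream of the gene) and the ZMAT3 site (chr3:179070188-179070207, minus strand, at 1602 in intron 1) match the motif with 0 mismatches. The GADD45A site (chr1:67686775-67686794, plus strand) lies at 1574 in intron 3 and has 1 mismatch. Those of BTG2 (chr1:203303642-203303661, plus strand, at -1877, upstream), FAS (chr10:88991309-88991328, plus strand, at 511 in intron 1 and inside an exon of another transcript) and PMAIP1 (chr18:59899549-59899568, plus strand, at -447, upstream) have 2. That of BBC3 (chr19:47231320-47231339, minus strand, at -140, upstream) has 3. No site with at most 3 mismatches was found in this window for SESN1, MDM2, APAF1, FDXR or the 10 other members without a match, which says only that these letters are not there. In the expression data, PLK2 and ZMAT3, both with a full match, went different ways after ephrin-B1 siRNA, as described below.

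The targeted gene was checked first. EFNB1, which encodes ephrin-B1, stood at 20.4, 17.5 and 19.3 CPM (estimated counts scaled to a TMM-normalized library total) in Ctrl replicates 1 to 3, at 15.6, 18.8 and 18.4 in EphB2, at 7.1, 6.6 and 8.7 in the siRNA group and at 6.56, 6.03 and 6.38 in the combined group. Every library with ephrin-B1 siRNA was below every library without it, and the siRNA lowered the RNA without removing it (siRNA vs Ctrl log2 fold change -1.35, SE 0.129, adjusted p = 0.00124). Library totals lay between 13230689 and 25785591 estimated counts. Of 12 microglia markers, 6 (AIF1, ITGAM, CX3CR1, P2RY12, SPI1 and C1QA) were under 1 TPM in every library, and the 12 summed to 133 to 216 TPM, whereas 8 mesenchymal markers summed to 2950 to 5659 TPM. The mesenchymal sum was 4233 to 5659 TPM in Ctrl, 3820 to 4694 in EphB2, 4231 to 4549 in the siRNA group and 2950 to 3837 in the combined group, and its part in the results below was not tested. Since these are bulk libraries, fewer cells with a transcript and less of it per cell cannot be told apart.

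Libraries with the same replicate number come from the same numbered experiment, so each comparison is also described by its 3 same-numbered pairs and by a second edgeR fit that has the experiment as a block. Where an adjusted p is given without mention of the block, it is from the edgeR fit that has none. Replicates 1 and 2 each varied together across groups, but replicate 3 hardly did and lay between the other two for 21 to 23 of the 32 members in each group (50.4% to 53.4% of all genes). Since this does not settle whether replicate 3 is paired, counts of calls with the block are also given without that replicate.

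By TPM, which is per transcript length, the 32 members spanned more than 3 orders of magnitude in Ctrl. PLK2, a polo-like kinase that slows cell cycle entry, was highest at 481 ± 55.6 TPM (SD, n = 3), followed by CDKN1A, the cyclin-dependent kinase inhibitor p21, at 203 ± 53.7, MDM2 at 139 ± 24.7 and CCNG1, the cyclin G1 that recruits a phosphatase to MDM2, at 131 ± 8.65. The order of MDM2 and CCNG1 lies within their spread. The next 2 were BAX at 91.0 ± 11 and the death receptor gene TNFRSF10B at 85.0 ± 10.7, which also overlap. At the low end stood TIGAR (4.36 ± 0.743), EDA2R (0.806 ± 0.4) and SPATA18 (0.166 ± 0.131). SPATA18, a mitochondrial quality control gene, had 1 to 7 counts per library and EDA2R 9 to 81, so no change of SPATA18 could be detected at this depth. The other 31 members are shown library by library in the heat map of CPM.

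**Figure D1:**
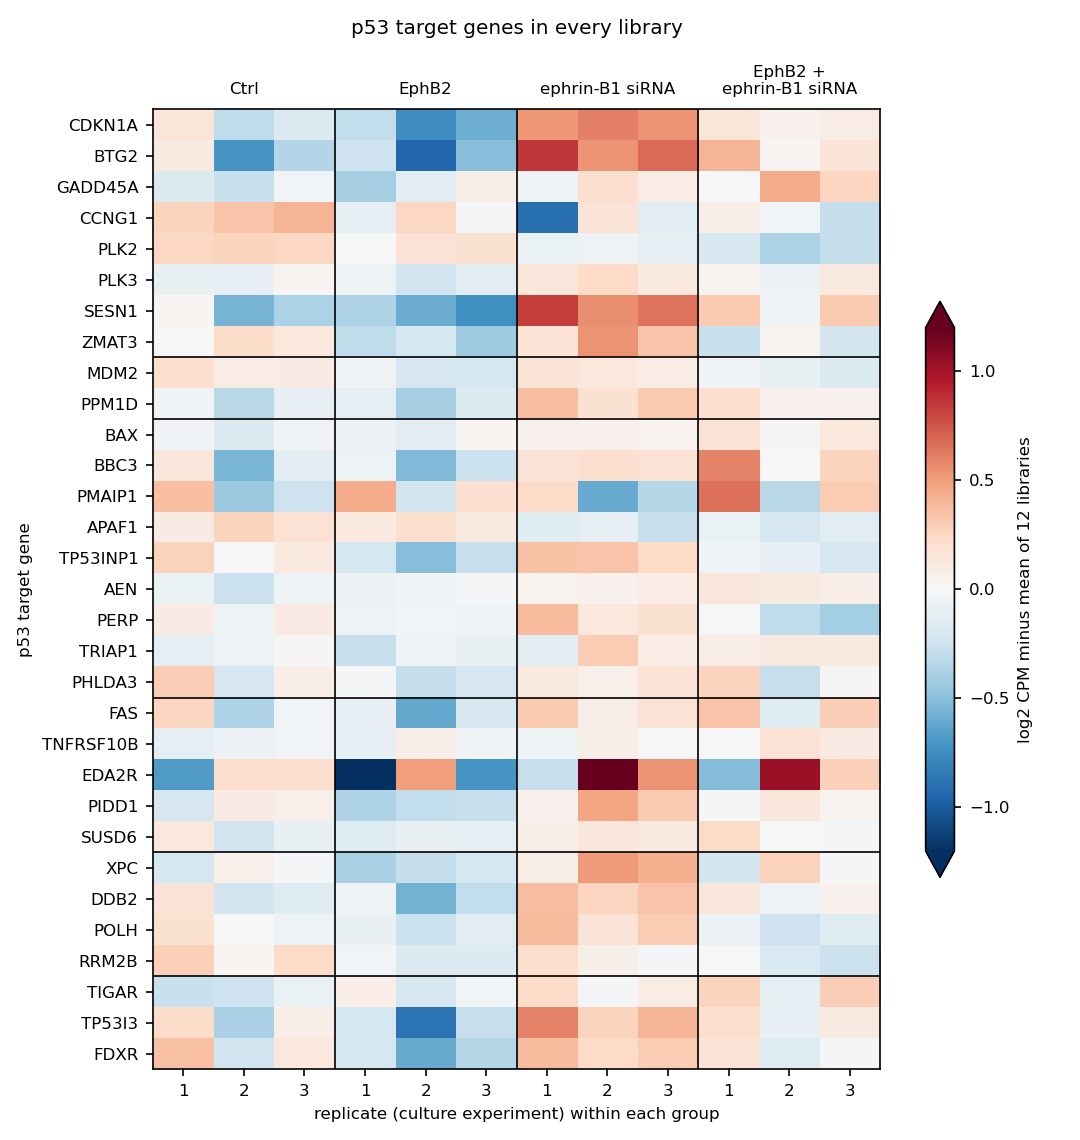
Heat map of 31 p53 target genes (rows, grouped by role with SPATA18 left out for its 1 to 7 counts) in the 12 libraries (columns, replicates 1 to 3 of each group), with color giving log2 CPM minus the gene's mean over the 12 libraries and values beyond 1.2 in either direction drawn at the end of the scale. The siRNA columns are mostly red and the EphB2 columns mostly blue, CDKN1A, BTG2 and SESN1 are among the strongest rows, and PLK2 and APAF1 run the other way under ephrin-B1 siRNA.

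The first question is what EphB2-Fc did to p53 targets, which 2 comparisons answer without sharing a library, EphB2 vs Ctrl under control siRNA and combined vs siRNA group under ephrin-B1 siRNA. In EphB2 vs Ctrl, 25 of 32 members had a negative log2 fold change (48.6% of all genes did), with a median of -0.21 where all genes had 0.007. The median was -0.10 without Ctrl replicate 1, -0.12 without EphB2 replicate 2 and -0.10 when each gene was taken by its most abundant transcript, with 23, 24 and 22 members negative. None passed at an adjusted p under 0.05 in edgeR (0.037% of all genes did), 9 had an unadjusted p under 0.05 (7.56% of all genes), DESeq2 called 3 lower (1.02% of the 11965 genes left by its own filter) and limma on log2(TPM + 1) called 0. In all 3 pairs 18 members were lower (19.4% of all genes) and 3 were higher (18.5%). For 9 members the 3 EphB2 libraries lay below the 3 Ctrl libraries (5.93% of all genes) and for none above (6.62%). With the block, 9 fell (3.2% of all genes fell) and none rose (2.13%), namely TP53INP1, MDM2, ZMAT3, CDKN1A, FDXR, RRM2B, PIDD1, POLH and TP53I3. Without replicate 3 the block left 1, TP53INP1 (0.349% of all genes fell).

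In the combined vs siRNA comparison, 23 of 32 members were negative (49.9% of all genes), again with a median of -0.21. None passed without the block (0.116% of all genes did), 11 had an unadjusted p under 0.05 (8.45%), DESeq2 called 5 lower (1.6% of the 10709 genes it left) and limma 0. In all 3 pairs 18 were lower (22% of all genes), and for 13 the groups did not overlap, lower in the combined group (7.31%). With the block 14 fell (4.1% of all genes) and PMAIP1 rose (2.82%). Without replicate 3 the block left 2, ZMAT3 and POLH (0.3% of all genes fell). Genes of higher level were called more often with the block, so the shares were also taken over the 10145 genes of at least 10 CPM on average, to which 29 members belong. Of these genes 6.35% fell with the block in EphB2 vs Ctrl and 7.96% in combined vs siRNA, against 9 and 14 of the 29 members. In all 3 pairs 29.1% of them were lower in EphB2 vs Ctrl and 33.3% in combined vs siRNA, against 17 of the 29 members in each. Taken side by side, 15 members were lower in 6 of 6 pairs (9.78% of all genes, 17.6% of those of at least 10 CPM), and PMAIP1 was higher in 6 of 6 (7.62% of all genes). The 15 were CDKN1A, BTG2, PLK2, SESN1, ZMAT3, MDM2, PPM1D, TP53INP1, PIDD1, XPC, DDB2, POLH, RRM2B, TP53I3 and FDXR.

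**Figure D2:**
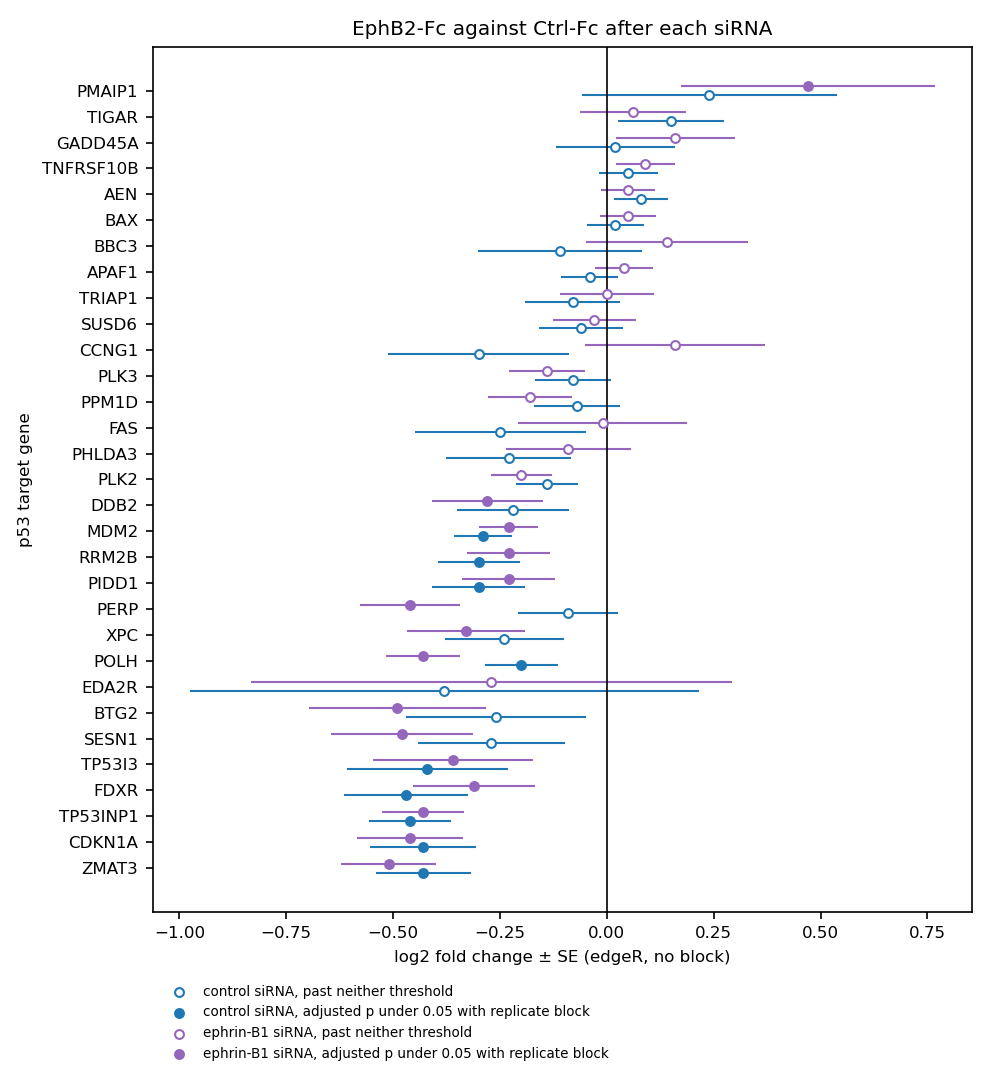
Log2 fold change with its SE (edgeR without a block) of 31 p53 target genes for EphB2-Fc against Ctrl-Fc, with blue points under control siRNA and purple points under ephrin-B1 siRNA, filled where the adjusted p with the block was under 0.05. ZMAT3, CDKN1A, TP53INP1, TP53I3 and FDXR lie between -0.31 and -0.51 in both, and the only filled point above 0 is PMAIP1 under ephrin-B1 siRNA.

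The second question is what ephrin-B1 siRNA did, answered by the siRNA group vs Ctrl and by combined vs EphB2, again without a shared library. In siRNA vs Ctrl, 26 of 32 members were positive (49.4% of all genes), with a median of 0.22 where all genes had -0.003. At an adjusted p under 0.05 SESN1, CDKN1A and BTG2 rose and APAF1 and PLK2 fell, 5 in all (1.81% of all genes changed, 0.657% rose and 1.15% fell). In all 3 pairs 23 were higher (22% of all genes) and 4 lower (22.1%), and the groups did not overlap for 14 higher members (9.16%) and 3 lower ones (8.89%). With the block 13 rose and 3 fell (6.51% and 7.06% of all genes), and without replicate 3 it was 5 and 1 (1.49% and 2.52%). Single libraries weighed on the count without the block, which was 0 without Ctrl replicate 2, Ctrl replicate 3, siRNA replicate 1 or siRNA replicate 3, 1 without siRNA replicate 2, 2 without combined replicate 3 and 3 without EphB2 replicate 3.

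In combined vs EphB2, 26 of 32 members were positive (47.1% of all genes), with a median of 0.20. PLK2 fell (0.616% of all genes changed, 0.407% fell), and none rose without the block (0.208% of all genes), while 17 had an unadjusted p under 0.05 (10.4%) and DESeq2 called 4 higher and 2 lower (2.41% and 2.75% of the 12802 genes it left). The call of PLK2 was lost without any 1 of 10 libraries, at an adjusted p of up to 0.197 (without combined replicate 3), and held without EphB2 replicate 1 and without siRNA replicate 1. In all 3 pairs 24 were higher (19.5% of all genes), and for 12 the groups did not overlap, higher in the combined group (6.9%). With the block 14 rose and 2 fell (4.53% and 5.4% of all genes), and without replicate 3 it was 6 and 0 (0.804% each). Of genes of at least 10 CPM, 12.6% rose with the block in siRNA vs Ctrl and 8.88% in combined vs EphB2, against 13 and 12 of the 29 members. In the same 2 comparisons 13.3% and 10.6% of these genes fell with the block, against 3 and 2 of the 29. In all 3 pairs 31.3% and 28.6% of them were higher, against 20 and 22 of the 29. Side by side, 20 members were higher in 6 of 6 pairs (10.7% of all genes, 19.1% of those of at least 10 CPM), and PLK2 and APAF1 were lower in 6 of 6 (10.3% of all genes).

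**Figure D3:**
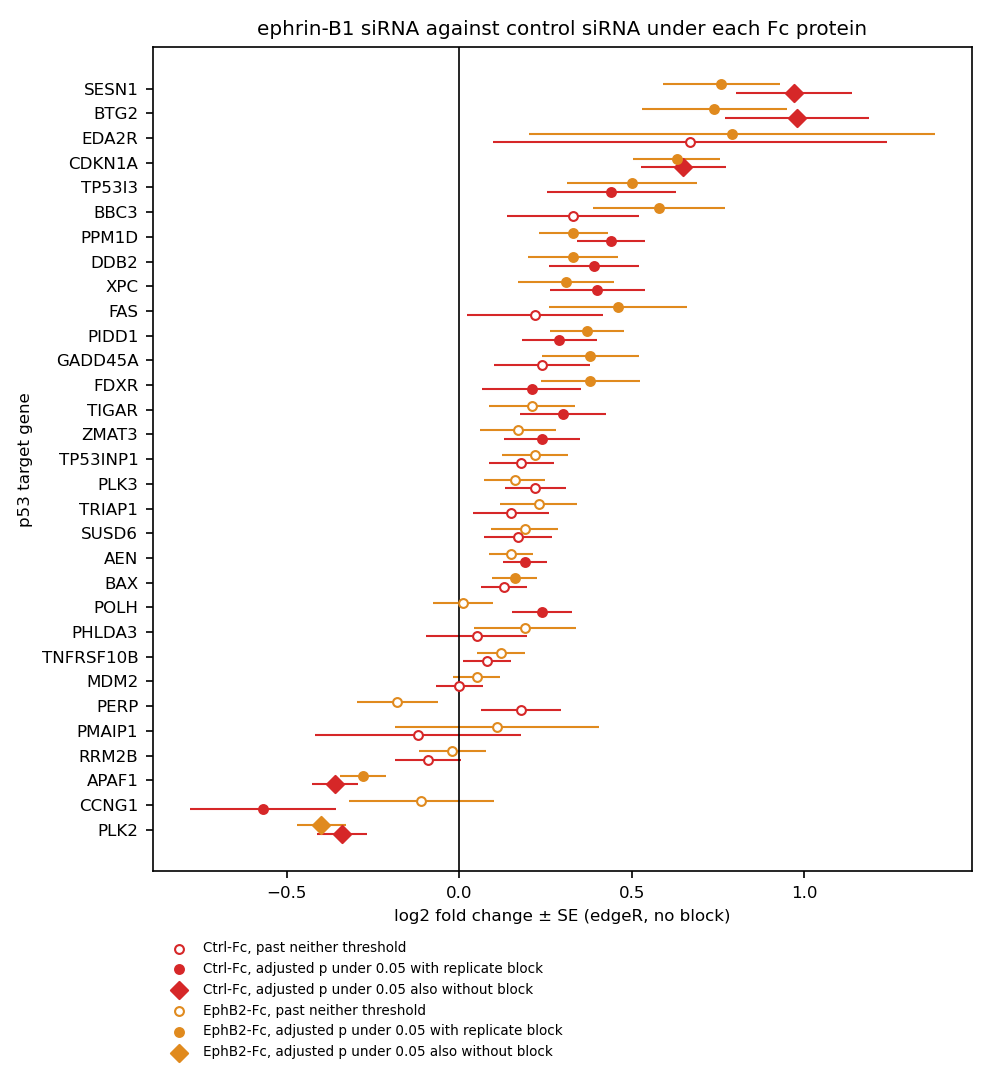
Log2 fold change with its SE (edgeR without a block) of 31 p53 target genes for ephrin-B1 siRNA against control siRNA, with red marks under Ctrl-Fc and orange marks under EphB2-Fc, circles filled where the adjusted p was under 0.05 with the block alone and diamonds where it was so without the block too. SESN1, BTG2 and CDKN1A lie between 0.63 and 0.98 in both, while PLK2 and APAF1 lie between -0.28 and -0.40.

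On the TPM scale the median of all genes was itself displaced, by 0.18 on the log2 scale in siRNA vs Ctrl, by -0.28 in combined vs siRNA and by -0.03 to -0.10 in the other comparisons of groups. Of the 30 members at 1 TPM or more on average, 24 lay below that median in EphB2 vs Ctrl, 21 below it in combined vs siRNA, 25 above it in siRNA vs Ctrl, 26 above it in combined vs EphB2 and 18 above it in combined vs Ctrl. Without regard to that median, limma on log2(TPM + 1) put 15 of the 30 above 0 and 15 below in combined vs Ctrl, with a median of -0.01.

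The genes that feed back on p53 are taken first, and from here the values of each group are given in the order of replicates 1 to 3. MDM2, the ligase that degrades p53, had 367, 339 and 340 CPM in Ctrl, 308, 276 and 274 in EphB2, 356, 348 and 338 in the siRNA group and 309, 299 and 282 in the combined group. All 6 libraries with EphB2-Fc lay below all 6 with Ctrl-Fc, and the siRNA made no such separation. MDM2 fell with the block in EphB2 vs Ctrl (log2 fold change -0.29, SE 0.0684, adjusted p = 0.271 without and 0.00093 with the block) and in combined vs siRNA (-0.23, SE 0.0683, adjusted p = 0.334 without and 0.00325 with the block). In siRNA vs Ctrl its log2 fold change was 0.00 with an SE of 0.0683. PPM1D, the phosphatase WIP1 that dephosphorylates p53, had 44.5, 36.3 and 42.8 CPM in Ctrl, 42.2, 34.6 and 40.8 in EphB2, 58.6, 51.8 and 56.8 in the siRNA group and 52.6, 47.3 and 47.5 in the combined group. Here it was the libraries with ephrin-B1 siRNA that stood above all those without it. The log2 fold change was 0.44 in siRNA vs Ctrl (SE 0.0997, adjusted p = 0.0538 without the block, 0.000124 with it and 0.00959 with it but no replicate 3). It was 0.33 in combined vs EphB2 (SE 0.0999, adjusted p = 0.211 without and 0.00191 with the block), and PPM1D rose with the block in both. Thus the 2 feedback genes each separated along a different treatment. PPM1D was also lower with EphB2-Fc in 6 of 6 pairs (9.78% of all genes), as MDM2 was, but did not pass with the block there.

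Of the 8 genes of cell cycle arrest and growth control, 7 were negative in EphB2 vs Ctrl and 6 were positive in siRNA vs Ctrl. CDKN1A, whose product p21 inhibits cyclin-dependent kinases, had 384, 282 and 309 CPM in Ctrl, 283, 207 and 232 in EphB2, 497, 529 and 505 in the siRNA group and 385, 361 and 370 in the combined group. The siRNA group lay above every other library, the combined group overlapped Ctrl, and EphB2 was lowest but for 1 library that met the range of Ctrl. CDKN1A rose 1.57-fold in siRNA vs Ctrl, from 325 ± 53.1 to 510 ± 16.4 CPM (SD, n = 3). This is 0.65 on the log2 scale (SE 0.124, adjusted p = 0.0259 without and 0.000106 with the block). In EphB2 vs Ctrl it stood at 241 ± 38.5 against 325 ± 53.1 CPM, and the fall passed with the block (log2 fold change -0.43, SE 0.124, adjusted p = 0.401 without the block, 0.00726 with it and 0.113 with it but no replicate 3). The ratios of the 3 pairs were -0.44, -0.44 and -0.41 on the log2 scale, although the 2 groups overlap. In combined vs siRNA the log2 fold change was -0.46 (SE 0.124, adjusted p = 0.275 without and 0.00369 with the block). In combined vs EphB2 it was 0.63 (SE 0.125, adjusted p = 0.0523 without and 0.000339 with the block).

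SESN1, a sestrin that restrains mTORC1 and oxidative stress, had 10.9, 7.28 and 8.26 CPM in Ctrl, 8.29, 7.08 and 6.45 in EphB2, 19, 15.8 and 16.8 in the siRNA group and 13.3, 10.4 and 13.3 in the combined group. The siRNA group again held the highest values, without overlap with any other group. SESN1 rose 1.96-fold in siRNA vs Ctrl (log2 fold change 0.97, SE 0.168, adjusted p = 0.0162), and in combined vs EphB2 the log2 fold change was 0.76 (SE 0.17, adjusted p = 0.079 without and 0.000688 with the block). BTG2, an antiproliferative co-regulator of transcription and RNA decay, had 43.8, 25 and 31.9 CPM in Ctrl, 34.4, 21.1 and 28.6 in EphB2, 74.1, 59.1 and 65.2 in the siRNA group and 54, 41.4 and 45.4 in the combined group. It rose 1.97-fold in siRNA vs Ctrl (log2 fold change 0.98, SE 0.209, adjusted p = 0.0395), and with the block it rose in combined vs EphB2 (0.74, SE 0.21, adjusted p = 0.172 without and 0.000104 with the block). With EphB2-Fc on top of the siRNA both genes were lower, SESN1 by -0.48 on the log2 scale (SE 0.166, adjusted p = 0.437 without and 0.00975 with the block) and BTG2 by -0.49 (SE 0.207, adjusted p = 0.538 without and 0.00191 with the block). Every combined library of both genes lay below every siRNA library. Under control siRNA their values were -0.27 and -0.26, neither passing with the block (adjusted p = 0.222 and adjusted p = 0.123).

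The adjusted p of these 3 rises passed 0.05 when single libraries were left out. For SESN1 it was 0.0523 without siRNA replicate 1, 0.0737 without siRNA replicate 3, 0.079 without Ctrl replicate 2 and 0.0998 without Ctrl replicate 3. For CDKN1A it was highest without Ctrl replicate 3 (0.136), and the call was also lost without Ctrl replicate 2, without any 1 of the siRNA libraries and without combined replicate 3 (0.0531). For BTG2 it was highest without Ctrl replicate 3 (0.184), and the call was lost without 8 of the 12 libraries in all, those being Ctrl replicates 2 and 3, EphB2 replicate 3, all 3 of the siRNA group and combined replicates 1 and 3. In 3 of 3 pairs each of the 3 genes was higher in the siRNA group.

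**Figure D4:**
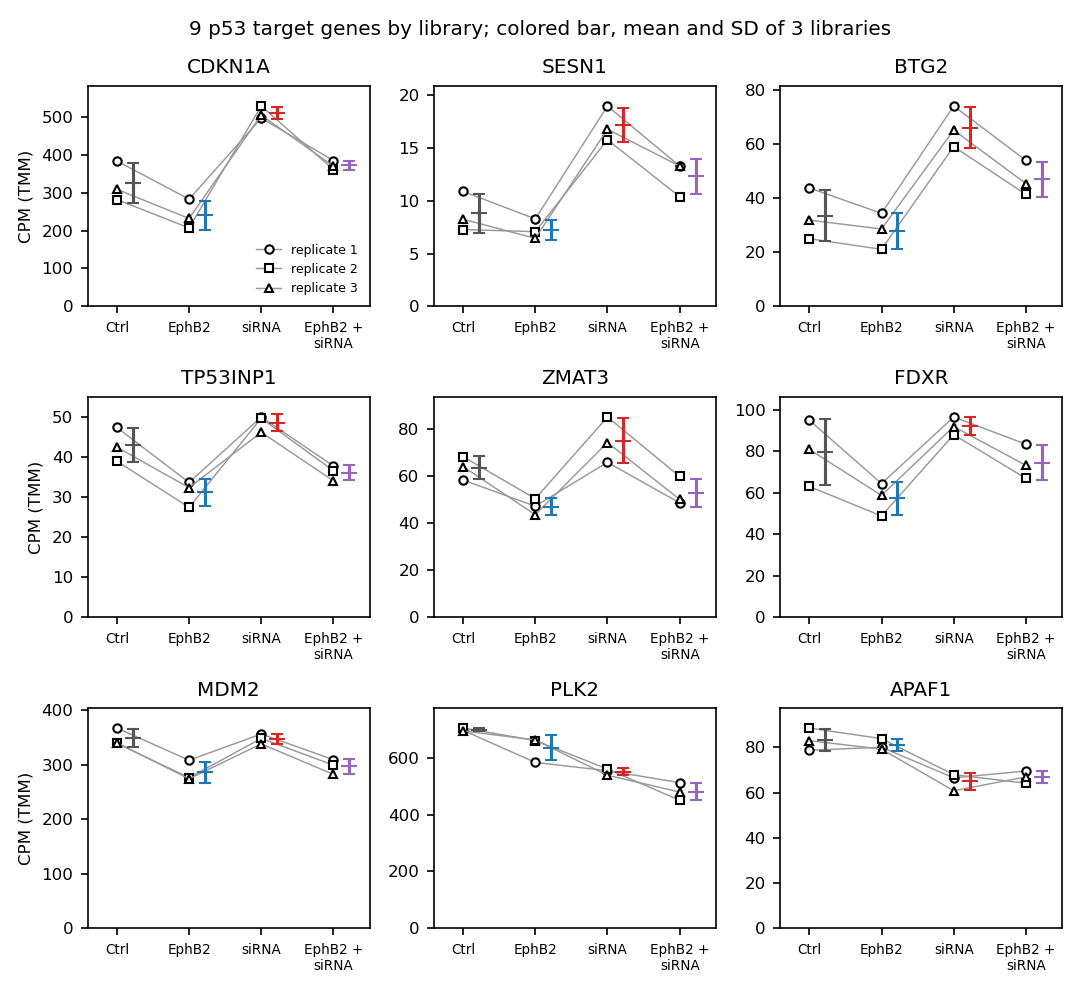
CPM of 9 p53 target genes in each library (circles, squares and triangles for replicates 1 to 3, with gray lines joining libraries of the same replicate number across the 4 groups), and beside them the mean with the SD of 3 libraries as a colored bar, on axes that start at 0. CDKN1A, SESN1 and BTG2 peak in the siRNA group, MDM2 and TP53INP1 dip in the groups with EphB2-Fc, and PLK2 is lowest in the combined group.

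ZMAT3, a zinc finger RNA-binding protein of p53-dependent growth control, had 58.2, 68.1 and 63.9 CPM in Ctrl, 47.1, 50.3 and 43.5 in EphB2, 65.7, 84.9 and 74.1 in the siRNA group and 48.5, 59.7 and 50 in the combined group. Both groups with EphB2-Fc lay below their partners with Ctrl-Fc without overlap. The log2 fold change was -0.43 in EphB2 vs Ctrl (SE 0.111, adjusted p = 0.3 without the block, 0.000967 with it and 0.0578 with it but no replicate 3). It was -0.51 in combined vs siRNA (SE 0.111, adjusted p = 0.162 without the block, 0.000235 with it and 0.0247 with it but no replicate 3). ZMAT3 also rose with the block in siRNA vs Ctrl (0.24, SE 0.11, adjusted p = 0.0137 with the block), where the groups overlapped.

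PLK2 differed from these genes. It had 696, 704 and 694 CPM in Ctrl, 583, 660 and 662 in EphB2, 554, 560 and 538 in the siRNA group and 512, 450 and 479 in the combined group, so that the 4 groups came in this order with no overlap between any 2. It fell in siRNA vs Ctrl (log2 fold change -0.34, SE 0.0719, adjusted p = 0.0364), in combined vs EphB2 (-0.40, SE 0.072, adjusted p = 0.0373) and, to 0.688 of the Ctrl level, in combined vs Ctrl (-0.54, SE 0.0721, adjusted p = 0.00412). For EphB2-Fc alone the values were -0.14 (SE 0.0718, adjusted p = 0.212 with the block) and, under the siRNA, -0.20 (SE 0.0719, adjusted p = 0.0566 with the block). The call in siRNA vs Ctrl was lost without any 1 of 8 libraries, at an adjusted p of up to 0.177 (without siRNA replicate 3), and in combined vs Ctrl it held without each single library.

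CCNG1 had 218, 229 and 240 CPM in Ctrl, 167, 215 and 178 in EphB2, 96.4, 201 and 166 in the siRNA group and 191, 177 and 148 in the combined group. The first siRNA library stood far below the other libraries. CCNG1 fell with the block in siRNA vs Ctrl (log2 fold change -0.57, SE 0.211, adjusted p = 0.274 without the block, 0.0222 with it and 0.114 with it but no replicate 3), with pair ratios of -1.18, -0.18 and -0.53. Leaving out that library gave -0.32 without the block. GADD45A, a stress sensor of growth arrest and DNA repair, had 23.7, 22.2 and 26 CPM in Ctrl, 20.3, 24.3 and 28.1 in EphB2, 25.8, 30.5 and 28.4 in the siRNA group and 26.6, 36.3 and 31.8 in the combined group. It rose with the block in combined vs EphB2 (0.38, SE 0.14, adjusted p = 0.0211 with the block), with overlap of both groups. PLK3, a stress-activated polo-like kinase, stayed between 16.1 and 22.3 CPM and passed in no comparison with or without the block.

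Among the 10 genes of apoptosis and survival the directions were mixed, with 6 negative in EphB2 vs Ctrl and 5 in combined vs siRNA. TP53INP1, a stress-induced nuclear protein that promotes p53 phosphorylation and autophagy, had 47.3, 38.9 and 42.4 CPM in Ctrl, 33.6, 27.4 and 32.3 in EphB2, 49.9, 49.6 and 46.1 in the siRNA group and 37.7, 36.5 and 34 in the combined group. Both groups with EphB2-Fc lay below both groups with Ctrl-Fc. Of the members it had the smallest unadjusted p in EphB2 vs Ctrl, going from 42.9 ± 4.2 to 31.1 ± 3.28 CPM (SD, n = 3). The change was -0.46 on the log2 scale (SE 0.0959, adjusted p = 0.193 without the block, 0.00197 with it and 0.0409 with it but no replicate 3). In combined vs siRNA it was -0.43 (SE 0.0953, adjusted p = 0.169 without the block, 0.00239 with it and 0.0714 with it but no replicate 3).

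APAF1, the scaffold of the apoptosome, had 78.7, 88.5 and 82.9 CPM in Ctrl, 80, 83.8 and 79.2 in EphB2, 66.5, 67.9 and 60.8 in the siRNA group and 69.5, 64.1 and 66.9 in the combined group. The 6 libraries with ephrin-B1 siRNA lay below the 6 without it, while EphB2-Fc made no separation. APAF1 fell in siRNA vs Ctrl (log2 fold change -0.36, SE 0.0672, adjusted p = 0.0233) and in combined vs Ctrl (-0.32, SE 0.0672, adjusted p = 0.0354). With the block it also fell in combined vs EphB2 (-0.28, SE 0.0672, adjusted p = 0.109 without and 0.00576 with the block). The call in siRNA vs Ctrl was lost without Ctrl replicate 2, Ctrl replicate 3 or any 1 of the siRNA libraries, at an adjusted p between 0.0523 and 0.126. That in combined vs Ctrl was lost without Ctrl replicate 2, Ctrl replicate 3, EphB2 replicate 3 or any 1 of the combined libraries, at an adjusted p between 0.0575 and 0.144.

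PMAIP1, which encodes NOXA, had 34, 19.5 and 22.3 CPM in Ctrl, 36.1, 22.8 and 30.3 in EphB2, 31.1, 17.4 and 20.9 in the siRNA group and 42, 21.1 and 32.8 in the combined group. Replicate 1 was the highest in every group, so the groups overlapped throughout, and the pair ratios of combined over siRNA were 0.43, 0.28 and 0.65. PMAIP1 rose there with the block (log2 fold change 0.47, SE 0.297, adjusted p = 0.762 without the block, 0.00567 with it and 0.128 with it but no replicate 3). BBC3, which encodes PUMA, had 16, 9.96 and 13.4 CPM in Ctrl, 14, 10.1 and 12.2 in EphB2, 16.2, 16.7 and 16.5 in the siRNA group and 22, 14.6 and 17.6 in the combined group. It rose with the block in combined vs EphB2 (0.58, SE 0.191, adjusted p = 0.256 without and 0.00572 with the block), and in siRNA vs Ctrl its value was 0.33 (SE 0.191, adjusted p = 0.057 with the block).

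BAX, the pore-forming effector of the mitochondrial pathway, had 65.9, 60.2 and 65.9 CPM in Ctrl, 64.6, 61.7 and 68.9 in EphB2, 70.2, 70.1 and 70 in the siRNA group and 76, 68.4 and 73.9 in the combined group. Its shifts were small, with a rise under the block in combined vs EphB2 (log2 fold change 0.16, SE 0.0661, adjusted p = 0.0465 with the block). AEN, an apoptosis-enhancing nuclease, had 84.5, 74.3 and 86 CPM in Ctrl, 85.1, 85.8 and 88.5 in EphB2, 92, 92.6 and 94.8 in the siRNA group and 98.2, 96.2 and 94.1 in the combined group. The libraries with ephrin-B1 siRNA all lay above those without it. AEN rose with the block in siRNA vs Ctrl (0.19, SE 0.063, adjusted p = 0.0198 with the block) and in combined vs Ctrl (0.24, SE 0.0631, adjusted p = 0.0893 without and 0.00474 with the block). PERP, a membrane protein of desmosomes and apoptosis, had 17.1, 15.4 and 17.2 CPM in Ctrl, 15.4, 15.7 and 15.5 in EphB2, 20.9, 17.5 and 18.2 in the siRNA group and 16, 13 and 12.1 in the combined group. It fell with the block in combined vs siRNA (-0.46, SE 0.117, adjusted p = 0.226 without and 0.00797 with the block), where the groups did not overlap, and stood at -0.09 in EphB2 vs Ctrl. TRIAP1, which supports cell survival, stayed between 18.2 and 27.2 CPM and PHLDA3, a repressor of Akt, between 26.8 and 40.1, and neither passed in any comparison with or without the block.

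Of the 5 death receptor and adaptor genes, 4 were negative in EphB2 vs Ctrl and 5 were positive in both comparisons of the siRNA. PIDD1, the scaffold of the PIDDosome that activates caspase-2, had 50.3, 62.1 and 60.5 CPM in Ctrl, 44.9, 47.4 and 47.8 in EphB2, 60.1, 80.3 and 71.9 in the siRNA group and 57.3, 63.9 and 59.5 in the combined group. EphB2 lay below every other group. PIDD1 fell with the block in EphB2 vs Ctrl (log2 fold change -0.30, SE 0.108, adjusted p = 0.532 without and 0.0124 with the block) and in combined vs siRNA (-0.23, SE 0.108, adjusted p = 0.0408 with the block). It rose with the block in siRNA vs Ctrl (0.29, SE 0.108, adjusted p = 0.265 without and 0.00508 with the block) and in combined vs EphB2 (0.37, SE 0.108, adjusted p = 0.193 without and 0.00199 with the block). FAS, the receptor of Fas ligand, had 9.14, 5.89 and 7.47 CPM in Ctrl, 7.14, 4.99 and 6.69 in EphB2, 9.47, 8.01 and 8.61 in the siRNA group and 9.71, 6.91 and 9.34 in the combined group. It rose with the block in combined vs EphB2 (0.46, SE 0.199, adjusted p = 0.45 without and 0.0177 with the block), with overlap. EDA2R, a receptor of ectodysplasin, had 1.2, 2.22 and 2.2 CPM in Ctrl, 0.514, 2.72 and 1.17 in EphB2, 1.58, 4.73 and 2.79 in the siRNA group and 1.34, 3.92 and 2.33 in the combined group, with replicate 2 highest in every group. Its rise with the block in combined vs EphB2 (0.79, SE 0.589, adjusted p = 0.0494 with the block) rests on few counts.

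TNFRSF10B, which encodes the TRAIL receptor DR5, had 201, 206 and 212 CPM in Ctrl, 202, 229 and 209 in EphB2, 209, 228 and 216 in the siRNA group and 218, 245 and 233 in the combined group. Ctrl and the combined group did not overlap, and it rose with the block in combined vs Ctrl (log2 fold change 0.17, SE 0.0695, adjusted p = 0.307 without and 0.0136 with the block). SUSD6, a transmembrane protein that restrains growth, stayed between 28.2 and 38.8 CPM and did not pass with or without the block.

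All 4 genes of DNA repair and nucleotide supply were lower in 3 of 3 pairs in EphB2 vs Ctrl and in combined vs siRNA. POLH, the translesion polymerase eta, had 103, 90.8 and 87.2 CPM in Ctrl, 85.4, 76.1 and 82.5 in EphB2, 118, 101 and 112 in the siRNA group and 86.8, 76.5 and 82.3 in the combined group. Both groups with EphB2-Fc lay below both groups with Ctrl-Fc. Of the members POLH had the smallest unadjusted p in combined vs siRNA (log2 fold change -0.43, SE 0.086, adjusted p = 0.124 without the block, 0.000162 with it and 0.0153 with it but no replicate 3). In EphB2 vs Ctrl the value was -0.20 (SE 0.0861, adjusted p = 0.637 without and 0.0278 with the block). POLH also rose with the block in siRNA vs Ctrl (0.24, SE 0.0859, adjusted p = 0.00368 with the block). RRM2B, the p53-inducible subunit of ribonucleotide reductase, had 61.9, 51.7 and 59.6 CPM in Ctrl, 49.7, 45.2 and 45.4 in EphB2, 58.9, 53.4 and 50 in the siRNA group and 50.9, 44.9 and 42.4 in the combined group. It fell with the block in EphB2 vs Ctrl (-0.30, SE 0.0961, adjusted p = 0.433 without and 0.00854 with the block) and in combined vs siRNA (-0.23, SE 0.0961, adjusted p = 0.537 without and 0.0341 with the block). In siRNA vs Ctrl it was -0.09 (SE 0.0958).

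XPC and DDB2 recognize damaged bases for nucleotide excision repair. XPC had 39.4, 47.4 and 44.7 CPM in Ctrl, 34.7, 37.4 and 39.4 in EphB2, 48, 64.9 and 61.2 in the siRNA group and 39, 54.9 and 44.8 in the combined group. DDB2 had 57.5, 44.3 and 46.7 CPM in Ctrl, 50.2, 34.7 and 42.1 in EphB2, 66.7, 61.8 and 65.5 in the siRNA group and 56.7, 49.3 and 53.6 in the combined group. For both the siRNA group lay above Ctrl without overlap. With the block both rose in siRNA vs Ctrl, XPC by 0.40 (SE 0.138, adjusted p = 0.222 without and 0.00148 with the block) and DDB2 by 0.39 (SE 0.13, adjusted p = 0.206 without and 0.00159 with the block). In combined vs siRNA they fell with the block, with log2 fold changes of -0.33 (SE 0.138, adjusted p = 0.0109 with the block) and -0.28 (SE 0.13, adjusted p = 0.0226 with the block), and none of these 4 calls held without replicate 3. In combined vs EphB2 both rose with the block, by 0.31 (SE 0.139, adjusted p = 0.0138 with the block) and 0.33 (SE 0.13, adjusted p = 0.00826 with the block). Neither of these rises held without replicate 3.

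In metabolism and redox control, FDXR and TP53I3 had the signs of CDKN1A in both comparisons of EphB2-Fc and in both of the siRNA, and TIGAR did not. FDXR, the mitochondrial ferredoxin reductase, had 95.1, 63.1 and 81 CPM in Ctrl, 64.5, 48.9 and 58.8 in EphB2, 96.6, 88.1 and 92 in the siRNA group and 83.5, 67 and 73.3 in the combined group. It had the lowest log2 fold change of the members in EphB2 vs Ctrl, falling with the block (-0.47, SE 0.144, adjusted p = 0.426 without the block, 0.00134 with it and 0.053 with it but no replicate 3). In combined vs siRNA it was -0.31 (SE 0.143, adjusted p = 0.597 without and 0.0116 with the block). TP53I3, the quinone oxidoreductase PIG3, had 38.8, 25.5 and 35.1 CPM in Ctrl, 28.8, 18 and 27.5 in EphB2, 50.3, 40.1 and 44.2 in the siRNA group and 38.1, 31.1 and 35.8 in the combined group. It fell with the block in EphB2 vs Ctrl (-0.42, SE 0.189, adjusted p = 0.0103 with the block) and in combined vs siRNA (-0.36, SE 0.186, adjusted p = 0.0157 with the block). It rose with the block in siRNA vs Ctrl (0.44, SE 0.187, adjusted p = 0.00192 with the block) and in combined vs EphB2 (0.50, SE 0.189, adjusted p = 0.00171 with the block). TIGAR, a phosphatase that diverts glucose to the pentose phosphate pathway, had 17.4, 17.6 and 19.9 CPM in Ctrl, 22.1, 18.2 and 20.5 in EphB2, 24.4, 20.8 and 22.3 in the siRNA group and 25.3, 19.4 and 25.8 in the combined group. TIGAR rose with the block in siRNA vs Ctrl (0.30, SE 0.125, adjusted p = 0.36 without and 0.0353 with the block) and was 0.15 in EphB2 vs Ctrl (SE 0.125, adjusted p = 0.443 with the block).

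In combined vs Ctrl, which shares Ctrl with 2 of the comparisons above, 21 of 32 members were positive and 11 negative (50.2% and 49.8% of all genes), with a median of 0.12 that was -0.01 on the TPM scale and 0.08 without Ctrl replicate 2. PLK2 and APAF1 fell (2.01% of all genes changed, 1.27% fell), no member rose without the block (0.736% of all genes), and 17 had an unadjusted p under 0.05 (13.3%). With the block 10 rose and 7 fell (6.06% and 9.04% of all genes), and without replicate 3 it was 3 and 2 (2.23% and 3.41%). Of genes of at least 10 CPM, 11.6% rose and 17.4% fell with the block, against 10 and 7 of the 29 members. CDKN1A stood at 372 ± 12.3 against 325 ± 53.1 CPM (log2 fold change 0.19, SE 0.124, adjusted p = 0.588 without and 0.119 with the block). The 10 that rose with the block were GADD45A, PPM1D, BAX, BBC3, PMAIP1, AEN, TNFRSF10B, TIGAR, BTG2 (0.49, SE 0.209, adjusted p = 0.000771 with the block) and SESN1 (0.49, SE 0.169, adjusted p = 0.00583 with the block). The 7 that fell were PLK2, APAF1, TP53INP1, POLH, RRM2B, MDM2 (-0.23, SE 0.0684, adjusted p = 0.00107 with the block) and ZMAT3 (-0.27, SE 0.111, adjusted p = 0.0067 with the block).

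Whether EphB2-Fc acted differently on the targets with and without ephrin-B1 was tested as an interaction, the log2 fold change of combined vs siRNA minus that of EphB2 vs Ctrl. No member passed, none had an unadjusted p under 0.05, and over all genes edgeR called 0% with 2.31% at an unadjusted p under 0.05. DESeq2 called no member (0.00926% of the 21591 genes it left), limma none, and with the block none passed (0.00463%). For CDKN1A the interaction was -0.03 with an SE of 0.175, for MDM2 0.06 with 0.0966 and for TP53INP1 0.04 with 0.135. The 3 smallest p-values belonged to PERP (-0.36, SE 0.165, adjusted p = 1), POLH (-0.23, SE 0.122, adjusted p = 1) and SPATA18. SPATA18 had 0.15, 0.103 and 0.0523 CPM in Ctrl, 0.229, 0.0632 and 0.244 in EphB2, 0.158, 0.175 and 0.337 in the siRNA group and 0.0393, 0.176 and 0.156 in the combined group, from a few counts in each library. A p that misses the threshold does not show that the responses to EphB2-Fc were alike with and without the siRNA.

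Genes that control p53, 22 in all, were listed apart. Without the block 2 of them rose and 1 fell in siRNA vs Ctrl (0.657% and 1.15% of all genes). HIPK2, a kinase that phosphorylates p53, fell in siRNA vs Ctrl (log2 fold change -0.61, SE 0.123, adjusted p = 0.0304) and CREBBP, an acetyltransferase that serves as co-activator, rose (0.33, SE 0.0676, adjusted p = 0.0327). In EphB2 vs Ctrl none of them passed without the block, and TP53BP1, a p53-binding protein of the DNA damage response (-0.16, SE 0.0643, adjusted p = 0.609 without and 0.0373 with the block), and RPL5, a ribosomal protein that binds MDM2 (-0.22, SE 0.326, adjusted p = 0.957 without and 0.00716 with it), fell with it. Neither passed with the block when replicate 3 was left out (adjusted p = 0.208 and adjusted p = 0.112). With the block 1 of the 22 rose and 2 fell in EphB2 vs Ctrl (2.13% and 3.2% of all genes, 3.92% and 6.35% of those of at least 10 CPM).

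A further 35 p53 targets outside the members moved in both directions. In EphB2 vs Ctrl 22 were negative (48.6% of all genes), with a median of -0.12, and none passed without the block. With it 5 rose and 4 fell (2.13% and 3.2% of all genes, 3.92% and 6.35% of those of at least 10 CPM). Without replicate 3 it was 1 and 1 (0.329% and 0.349% of all genes). Those that fell were CYFIP2 (log2 fold change -0.29, SE 0.069, adjusted p = 0.271 without and 0.0145 with the block), RAP2B, PLXNB2 and TNFRSF10D. Among those that rose were CD82 (log2 fold change 0.35, SE 0.0734, adjusted p = 0.193 without and 0.00139 with the block), DRAM1 and PML. In siRNA vs Ctrl 27 of 35 were positive (49.4% of all genes), with a median of 0.11. SESN2, a sestrin like SESN1, rose (0.72, SE 0.142, adjusted p = 0.0293), and CD82 (-0.38, SE 0.0737, adjusted p = 0.0263) and STEAP3 (-0.61, SE 0.133, adjusted p = 0.0422) fell. Without the block 0.657% of all genes rose and 1.15% fell. With the block 8 of the 35 rose and 6 fell (6.51% and 7.06% of all genes, 12.6% and 13.3% of those of at least 10 CPM). Without replicate 3 it was 3 and 4 (1.49% and 2.52% of all genes). In combined vs siRNA CD82, a tetraspanin, rose (0.56, SE 0.0737, adjusted p = 0.0147), as did 0.0833% of all genes.

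Among 16 cell cycle genes that p53 lowers through p21 and the DREAM repressor complex, 12 were negative in EphB2 vs Ctrl (48.6% of all genes) and 13 in combined vs siRNA (49.9%), in which p21 RNA was lower too. With the block 4 fell and 1 rose in EphB2 vs Ctrl (3.2% and 2.13% of all genes, 6.35% and 3.92% of those of at least 10 CPM). Without replicate 3 it was 1 and 0 (0.349% and 0.329% of all genes). The mitotic kinase PLK1 was among those that fell (log2 fold change -0.28, SE 0.0593, adjusted p = 0.193 without and 0.00234 with the block). In siRNA vs Ctrl, with CDKN1A up, CCNB2 (0.27, SE 0.0583, adjusted p = 0.0405) and KIF23 (0.25, SE 0.0531, adjusted p = 0.0364) rose and RRM2 fell (-0.33, SE 0.0597, adjusted p = 0.0198). Without the block 0.657% of all genes rose and 1.15% fell. With the block 6 of the 16 rose and 2 fell (6.51% and 7.06% of all genes, 12.6% and 13.3% of those of at least 10 CPM). Without replicate 3 it was 5 and 1 (1.49% and 2.52% of all genes).

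Within the genes, counts came mostly from the main transcript, with exceptions. CDKN1A-201 held 89.9% of the gene's counts and BTG2-201 99.3%. For SESN1 the main transcript SESN1-204 held 24.8%, and SESN1-202, another coding transcript, held 65%. SESN1-202 stood at 2.8 ± 1.41 TPM in Ctrl and 6.58 ± 1.9 in the siRNA group, and SESN1-204 at 0.739 ± 0.35 and 1.23 ± 0.377 (SD, n = 3). For PPM1D the coding PPM1D-201 held 48.9% and PPM1D-202, annotated for nonsense-mediated decay, 42.9%. The former stood at 5.08 ± 0.127 TPM in Ctrl and 7.22 ± 0.846 in the siRNA group, the latter at 6.96 ± 2.71 and 13.3 ± 4.56. FAS was spread over 5 transcripts of at least 10% each, and its main transcript held 13.3%, so single FAS transcripts are not resolved here. Of the 32 members 22 share no exon base with another tested gene. Among the 10 that do, TIGAR shares 18.1% of its exon bases with a gene on the same strand that stood at 7.27 CPM against 21.1 for TIGAR, and APAF1 9.67% with ANKS1B on the opposite strand, which stood at 0.806 CPM against 74.1 for APAF1. FAS (7.78 CPM) shares 1.32% with ACTA2 (12 CPM) and 0.566% with STAMBPL1 (11.6 CPM), and POLH (91.8 CPM) shares 3.12% with GTPBP2 (118 CPM). Whether reads passed between these genes was not tested.

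The members also differed between experiments within a group. Taken as log2 ratios, replicate 1 stood above replicate 2 by a median of 0.18 in Ctrl, 0.16 in EphB2, 0.00 in the siRNA group and 0.15 in the combined group, with medians over all genes between -0.02 and 0.01. PMAIP1 had ratios of 0.80, 0.66, 0.84 and 0.99 in the 4 groups and EDA2R of -0.89, -2.40, -1.58 and -1.55, larger than any treatment effect of either gene past a threshold. CDKN1A had 0.45 in both Ctrl and EphB2 and -0.09 and 0.09 in the groups with ephrin-B1 siRNA. The difference between experiments in CDKN1A was thus seen under control siRNA, and a test of that contrast was not made.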

How the data were processed

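RNA from 12 HMC3 cultures, 3 in each of 4 groups, was read as 100-base pairs. The authors deposited 1 kallisto table per sample with estimated counts and TPM for 188753 transcripts of the Ensembl 109 cDNA set (GRCh38). Deposited TPM values are the estimated counts divided by effective transcript length and scaled to one total per library by the authors with kallisto, whose version and strand setting are not given in the sources used here. Estimated counts split reads among transcripts, and exons shared by genes on either strand may exchange reads.

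Of these transcripts, 167067 (88.5%) matched GENCODE 44 by identifier and gave 36315 genes with 95.25% to 95.98% of each library's counts. Unmatched transcripts stayed out. Sums per gene were rounded to whole counts. edgeR 4.0.16 (TMM, quasi-likelihood, R 4.3.3) was fitted to the 21601 genes whose 12 libraries held 10 or more counts together, over all 4 groups and with no block, and p-values were adjusted after Benjamini and Hochberg at 0.05. DESeq2 1.42.0 and limma 3.58.1 on log2(TPM + 1) were alternatives. Groups came from the sample labels and replicate numbers from the experiment numbers of the tables, which are shared across groups, and separate experiments were taken as separate cultures. Deviations from the group means correlated (Pearson, 14272 genes) between 0.59 and 0.69 among libraries numbered 1. The range was 0.63 to 0.66 among those numbered 2 and 0.02 to 0.18 among those numbered 3. Deviations within a group sum to 0, so a replicate that lies between the others can correlate weakly even if paired. Pairing of replicate 3 therefore rests on the experiment number, and these correlations do not settle it. The biological coefficient of variation was 0.182, and 0.0649 with the block.

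The fits were checked on simulated counts with known changes in EphB2 vs Ctrl and no difference between experiments. Changes of 0.5 on the log2 scale were recovered for 20.9% of genes without the block and 17.9% with it. For changes of 1.0 the shares were 73.1% and 71.6%. Without simulated experiment differences, this does not test the gain from the block. Totals of 13230689 to 25785591 counts limit the precision of low genes. Intervals between libraries are given as SD and errors of fits as SE.

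The members and the lists (22 regulators, 35 further targets, 16 DREAM genes, markers) were chosen with earlier results of these data known. Per-library values are printed for members past the threshold in any comparison, with or without the block, or among the 3 smallest p-values. The other lists are given by counts with a few named genes, and these genes and the background of genes of at least 10 CPM were chosen after the values were seen. Exons, strands and starts were read from GENCODE 44 and site sequences from the hg38 genome. Figures were drawn with matplotlib 3.10.9. Results of some listed genes are not reported here.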

Additional observations from a re-analysis of the deposited data

How the results depend on the processing

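Counts of members past an adjusted p of 0.05 are given in the order EphB2 vs Ctrl, combined vs siRNA, siRNA vs Ctrl, combined vs EphB2, combined vs Ctrl and interaction, with 0, 0, 5, 1, 2 and 0 as reported. With the replicate block they were 9, 15, 16, 16, 17 and 0, and with the block and without replicate 3 they were 1, 2, 6, 6, 5 and 0. In the same order, 0.037%, 0.116%, 1.81%, 0.616%, 2.01% and 0% of all genes were called without the block. With it the shares were 5.34%, 6.92%, 13.6%, 9.93%, 15.1% and 0.00463%. With the block and without replicate 3 they were 0.678%, 0.818%, 4.01%, 1.61%, 5.64% and 0.029%. Alternatives chosen after seeing the data were the block in DESeq2 (9, 14, 15, 13, 16 and 0), the block without replicate 1 (6, 13, 17, 13, 15 and 0) or without replicate 2 (7, 11, 11, 9, 11 and 0), the block with an offset for transcript length (5, 7, 8, 8, 5 and 0) and the block on each gene's most abundant transcript (3, 5, 7, 4, 6 and 0). Without a block, DESeq2 gave 3, 5, 6, 6, 4 and 0, DESeq2 size factors 0, 0, 5, 1, 2 and 0, a filter of at least 1 count 0, 0, 4, 1, 1 and 0, and filterByExpr 0, 0, 6, 2, 2 and 0. A length offset gave 0, 0, 2, 0, 1 and 0, the most abundant transcript 0, 0, 0, 0, 1 and 0, a fit of the compared groups alone 0, 0, 0, 0 and 1, and limma with either pseudocount (1 or 0.1) 0 in each. With fewer replicates the count stayed at 0 in EphB2 vs Ctrl, combined vs siRNA and the interaction, and ranged from 0 to 6 in siRNA vs Ctrl, from 0 to 2 in combined vs EphB2 and from 0 to 2 in combined vs Ctrl. Leaving out a single library was enough for a count of 0 in siRNA vs Ctrl and in combined vs EphB2, and for 1 in combined vs Ctrl. In the order above, DESeq2 without a block called 1.71%, 2.66%, 8.14%, 5.16%, 8.94% and 0.00926% of the genes left by its own filter. For the other settings the share of all genes is not given here. Why the counts differ between settings was not tested. For single genes, 76 results of a member in a comparison were followed over the alternative settings. They were chosen because they passed with or without the block or were among the 3 smallest p-values. Of their values by setting, none changed direction once called, 1949 kept their side of the threshold, 292 passed it and 107 no longer did. The pairing of replicate 3, and depth for EDA2R and SPATA18, limit these counts.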
